A study of Mus musculus with 58 samples.

Results

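Ornithine aminotransferase (Oat), the amino acid transporter Slc1a5, the orphan receptor Gpr146, the phosphodiesterase Pde5a and trefoil factor 3 (Tff3) were described in mice given the polycyclic aromatic hydrocarbon indenopyrene (IP, the 1,2,3-cd isomer). These 5 genes were selected because their liver values differed from vehicle at 50 mg/kg-bw/day in an earlier look at the same arrays, so their liver differences from vehicle are given as values and were not tested. The array features whose RefSeq transcript belongs to these genes were taken, which gave 7 probes of 55681, namely 1 each for Oat, Pde5a and Tff3 and 2 each for Slc1a5 and Gpr146. Over the whole array, 26413 probes could be matched to 20018 gene symbols. Where a gene had 2 probes, the probe with the brighter liver signal is the one described unless stated.

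Male Muta™Mouse, a transgenic mutation reporter strain, were about 13 weeks old and were gavaged for 28 days with olive oil alone (vehicle) or with IP dissolved in it, the daily doses being 12.5, 25 or 50 mg/kg-bw/day. Lung, liver and forestomach were taken 3 days after the final dose. RNA from each tissue was labelled with Cy5 and hybridized beside a Cy3-labelled universal mouse reference RNA. Each value below is log2(Cy5/Cy3) after loess normalization within the array, that is, the tissue level relative to the reference RNA, so values of different genes cannot be ranked against each other. Each dose group had 5 mice in each tissue. The vehicle group had 5 mice in lung (mice 1 to 5) and 4 in liver and forestomach (mice 1, 2, 3 and 5), and the methods give 4 vehicle mice. Mice 6 to 10 were the lowest, 11 to 15 the middle and 16 to 20 the highest dose group. The RNA came from pieces of whole tissue, in which fewer cells of a type and less RNA per cell cannot be told apart.

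Oat converts ornithine, a product of the urea cycle enzyme arginase, to a precursor of glutamate and proline, and in liver it is known from the hepatocytes that surround the central vein. Slc1a5 (ASCT2) exchanges glutamine and other neutral amino acids across the plasma membrane and is low in normal liver. Gpr146 is a receptor of the plasma membrane that in hepatocytes has been linked to SREBP2, the transcription factor that drives cholesterol synthesis. Pde5a hydrolyses cyclic GMP, the second messenger of nitric oxide and natriuretic peptides, and is best known from smooth muscle. Tff3 is a small secreted peptide of mucous epithelia that is also made by the liver. Polycyclic aromatic hydrocarbons such as IP bind the aryl hydrocarbon receptor (AhR), whose core DNA element is GCGTG.

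RefSeq (GRCm38.p6) gave promoter windows from 250 bases before to 50 bases after the transcription start for Oat (1 start), Pde5a (1 start) and Gpr146 (3 starts), and none was at hand for Slc1a5 and Tff3. They are shown to give the sequence at the start of these genes and where this element occurs in it. The windows lie at chr7:132576349-132576648 on the minus strand (Oat), chr3:122728908-122729207 on the plus strand (Pde5a) and chr5:139380389-139380688 on the plus strand (the second Gpr146 start), and capitals mark GCGTG or its reverse complement CACGC.
Oat: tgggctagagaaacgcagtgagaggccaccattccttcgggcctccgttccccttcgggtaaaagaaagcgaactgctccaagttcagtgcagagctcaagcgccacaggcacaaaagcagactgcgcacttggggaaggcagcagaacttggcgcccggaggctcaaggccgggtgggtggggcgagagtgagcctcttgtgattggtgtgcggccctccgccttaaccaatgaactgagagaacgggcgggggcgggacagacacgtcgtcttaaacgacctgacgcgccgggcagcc
Pde5a: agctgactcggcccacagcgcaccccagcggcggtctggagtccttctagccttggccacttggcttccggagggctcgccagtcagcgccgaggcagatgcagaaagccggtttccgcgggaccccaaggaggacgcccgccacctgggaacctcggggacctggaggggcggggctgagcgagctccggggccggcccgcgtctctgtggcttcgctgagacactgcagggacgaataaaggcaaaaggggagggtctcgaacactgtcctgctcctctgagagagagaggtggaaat
Gpr146: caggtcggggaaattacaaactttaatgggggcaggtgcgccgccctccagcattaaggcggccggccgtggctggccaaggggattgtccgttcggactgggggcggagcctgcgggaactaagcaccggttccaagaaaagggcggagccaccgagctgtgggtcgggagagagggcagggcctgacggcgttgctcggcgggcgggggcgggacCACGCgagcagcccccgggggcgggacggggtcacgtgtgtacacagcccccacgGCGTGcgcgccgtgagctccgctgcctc
The Gpr146 window held 2 such elements, 1 on each strand, and the Oat and Pde5a windows and the other 2 Gpr146 windows held 0. Of all 32851 promoter windows, 32.4% held GCGTG on either strand. A match is a match of letters only.

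Several arrays stood apart in the share of probes above background. In liver, 14 arrays had 37.6 to 45% of probes well above background, whereas the liver arrays of mice 9 (77.5%), 13 (66.6%), 15 (73.3%), 16 (78.9%) and 20 (75.2%) had more, and none of these is a vehicle array. The liver arrays lay on 3 slides of their own and were scanned with a later version of the scanner software (11.0.1.1) than lung and forestomach (10.7.3.1), so that liver and slide cannot be told apart. Within a slide, doses were placed in separate array columns with few exceptions, and the effects of dose and of column cannot be separated either. The mean log2 ratio of 10 hepatocyte markers was 7.49 to 8.46 in the 4 vehicle livers, against 0.14 to 0.42 in vehicle lung, which is what the labels say. This hepatocyte score differed by slide: relative to the vehicle mean it was −0.83 to −0.63 on all 5 arrays of the second liver slide, the vehicle array of mouse 3 included, −0.07 to 0.31 on the 7 arrays of the first and −0.56 to 0.19 on the 7 arrays of the last liver slide.

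**Figure D1:**
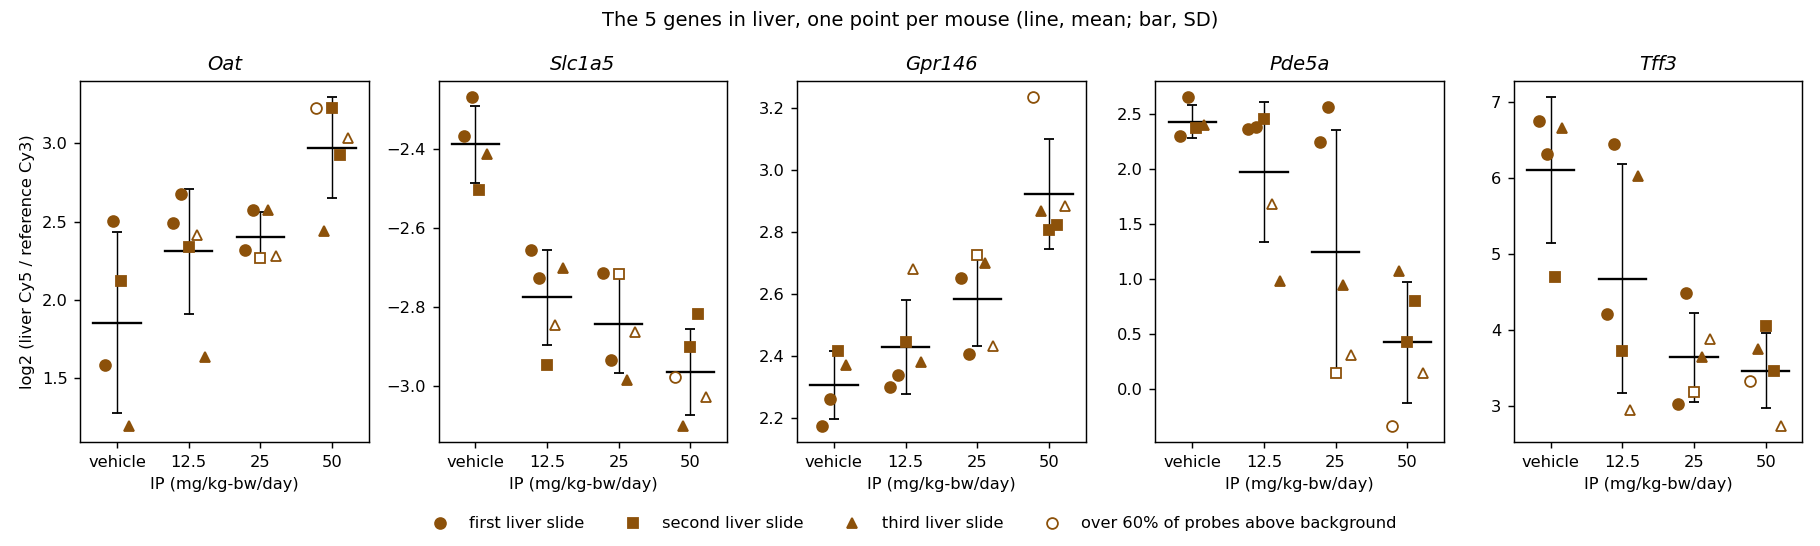
Log2(Cy5/Cy3) of the 5 genes in liver (y axis, log2 scale) against IP dose (x axis, mg/kg-bw/day), 1 point per mouse, with the group mean (line) and SD (bar). Symbols give the 3 liver slides and open symbols the 5 arrays with over 60% of probes above background. Slc1a5 lay below every vehicle value in all 15 dosed mice, and Pde5a at 25 mg/kg-bw/day spread from 0.15 to 2.56.

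Among the 5 genes, Oat and Gpr146 were higher and Slc1a5, Pde5a and Tff3 lower in liver at 50 mg/kg-bw/day than in vehicle. The group means of all 5 genes (5 of the 7 probes) were ordered by dose from vehicle to 50 mg/kg-bw/day, while 16.2% of all probes were. Since the genes were chosen on these values, nothing is read from that count. At 50 mg/kg-bw/day the dosed and vehicle mice did not overlap for Gpr146 (1.14% of all probes were higher without overlap) or for Slc1a5, Pde5a and Tff3 (1.59% were lower without overlap), and these shares are printed as background only.

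Oat in the vehicle livers was 1.58 in mouse 1, 2.51 in mouse 2, 2.12 in mouse 3 and 1.19 in mouse 5. At 12.5 mg/kg-bw/day it was 2.49, 2.68, 2.34, 2.41 and 1.63 in mice 6 to 10. At 25 mg/kg-bw/day it was 2.32, 2.57, 2.27, 2.57 and 2.28 in mice 11 to 15. The 25 mg/kg-bw/day mice lay close together near the upper end of the vehicle range. Oat at the highest dose was 3.23, 2.44, 3.23, 2.93 and 3.03 in mice 16 to 20. Of these, 4 of 5 lay above the highest vehicle mouse and mouse 17 lay below it, so the groups overlapped. The mean differences from vehicle were 0.46, 0.55 and 1.12 (SE 0.24) on the log2 scale, the last a 2.17-fold difference. Within the 3 slides the difference between 50 mg/kg-bw/day and vehicle was 1.18, 0.95 and 1.54. For every gene, such values rest on 1 dosed and 2 vehicle mice on the first slide. On each of the other slides they rest on 2 dosed mice and 1 vehicle mouse. Without the 5 liver arrays with many probes above background the Oat difference was 1.01.

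Gpr146 in the vehicle livers was 2.17, 2.26, 2.42 and 2.37 in mice 1, 2, 3 and 5. It was 2.30, 2.34, 2.44, 2.68 and 2.38 in mice 6 to 10 and 2.65, 2.41, 2.73, 2.70 and 2.43 in mice 11 to 15. Mice 6, 7 and 10 at the lowest dose and mouse 12 at the middle dose stayed within the vehicle range. The highest dose group had 3.23, 2.87, 2.81, 2.82 and 2.88 in mice 16 to 20, all above every vehicle mouse. Mouse 16 was the highest of the 5, and its array was among those with many probes above background. The differences from vehicle were 0.12, 0.28 and 0.62 (SE 0.11), and the last was 0.53 without the 5 such arrays. Within the slides it was 1.02, 0.40 and 0.50 at 50 mg/kg-bw/day, the first with mouse 16 as the only dosed mouse. The other Gpr146 probe, designed to a non-coding transcript of the gene, was well above background on 2 of 19 liver arrays (1 each at 25 and 50 mg/kg-bw/day) and differed by −0.15 at the highest dose.

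Slc1a5 had the narrowest groups of the 5 genes in liver. In the vehicle livers it was −2.37, −2.27, −2.50 and −2.41 in mice 1, 2, 3 and 5. At 12.5 mg/kg-bw/day it was −2.66, −2.73, −2.95, −2.85 and −2.70 in mice 6 to 10. Every mouse at the lowest dose was below every vehicle mouse, and 0.578% of all probes were lower without overlap at that dose. The vehicle livers were part of the choice of the genes, so this share is background only. At 25 mg/kg-bw/day it was −2.71, −2.93, −2.72, −2.98 and −2.86 in mice 11 to 15, and at 50 mg/kg-bw/day −2.98, −3.10, −2.90, −2.82 and −3.03 in mice 16 to 20. The 3 dosed groups overlapped each other. The differences from vehicle were −0.39, −0.45 and −0.58 (SE 0.09), and within the slides the last was −0.66, −0.36 and −0.65. These differences rested on the probe and on the normalization. The dimmer Slc1a5 probe, with a median liver Cy5 signal of 108 against 363.5 for the brighter, differed by 0.02, −0.02 and 0.24, and its highest value (−1.51) was that of mouse 20. With median-centring in place of loess the brighter probe differed by −0.03, −0.14 and −0.002. The vehicle and lowest dose groups then overlapped (−4.56 to −3.70 and −4.51 to −3.64).

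Pde5a was 2.30, 2.65, 2.37 and 2.40 in vehicle mice 1, 2, 3 and 5. The lowest dose group had 2.36, 2.38 and 2.45 in mice 6, 7 and 8, and 1.68 and 0.99 in mice 9 and 10. At 25 mg/kg-bw/day it was 2.25 and 2.56 in mice 11 and 12, and 0.15, 0.95 and 0.31 in mice 13, 14 and 15. On this loess scale the mice at both doses therefore fell into some at the vehicle level and some far below it. The mice of these doses at the vehicle level were the 4 on the first liver slide and mouse 8 on the second, and those below it were on the other 2 slides. In the highest dose group it was −0.33, 1.07, 0.43, 0.80 and 0.15 in mice 16 to 20, all below every vehicle mouse, mouse 16 on the first slide included. The vehicle mice on all 3 slides were alike (2.30 to 2.65). The differences from vehicle were −0.46, −1.19 and −2.00 (SE 0.44), and the last, a 4.01-fold difference, was −2.80, −1.75 and −1.78 within the slides. Mice 9, 13, 15, 16 and 20, with many probes above background, included the 4 lowest values, and without them the differences were −0.38, −0.51 and −1.66. With median-centring in place of loess, Pde5a ran from 0.67 to 1.43 in vehicle (mean 1.19). It then ran from 0.34 to 1.78 at 12.5 mg/kg-bw/day (mean 1.13) and from 0.03 to 1.28 at 25 mg/kg-bw/day (mean 0.59).

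Tff3 had the widest range. In the vehicle livers it was 6.74, 6.31, 4.70 and 6.66 in mice 1, 2, 3 and 5, mouse 3 being the vehicle mouse of the second slide, where hepatocyte markers were lowest. At 12.5 mg/kg-bw/day it was 4.21, 6.45, 3.73, 2.95 and 6.02 in mice 6 to 10. Mice 7 and 10 were within the vehicle range and the other 3 below it. At 25 mg/kg-bw/day it was 3.03, 4.49, 3.18, 3.64 and 3.88 in mice 11 to 15, and at 50 mg/kg-bw/day 3.33, 3.74, 4.06, 3.46 and 2.74 in mice 16 to 20. All 10 were below every vehicle mouse, where 1.24% of all probes were lower without overlap at 25 mg/kg-bw/day. This share too is background only. The differences from vehicle were −1.43, −2.46 and −2.64 (SE 0.59), the last a 6.22-fold difference. Within the first slide it was −3.19, within the second −0.94 and within the last −3.41. Without the 5 arrays with many probes above background it was −2.35.

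Median-centring each array in place of loess left the median of all probes 0.06 above 0 in liver at 50 mg/kg-bw/day and gave 1.70 for Oat, 1.18 for Gpr146, −1.10 for Pde5a and −1.82 for Tff3, beside −0.002 for Slc1a5. Apart from the second probes, no alternative changed the sign of any of the 15 liver differences. Since the genes were chosen on these differences, nothing is read from that. The step from 12.5 to 25 mg/kg-bw/day is a difference of means without the vehicle and the 50 mg/kg-bw/day mice, and it was tested. It was 0.09 for Oat (95% interval −0.37 to 0.56), −0.07 for Slc1a5 (−0.24 to 0.11), 0.16 for Gpr146 (−0.06 to 0.37), −0.73 for Pde5a (−1.59 to 0.13) and −1.03 for Tff3 (−2.19 to 0.13). None of the 5 passed an adjusted p of 0.05 (limma, adjusted p of 1 each), where 0% of all probes were called and 2.53% had an unadjusted p under 0.05. The exact permutation test (two-sided), which used only the mice of these 2 doses, gave 0.23 for both Pde5a and Tff3. The limma intervals and p values took their spread from all 4 liver groups. Those include the vehicle and 50 mg/kg-bw/day mice on which the genes were chosen.

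**Figure D2:**
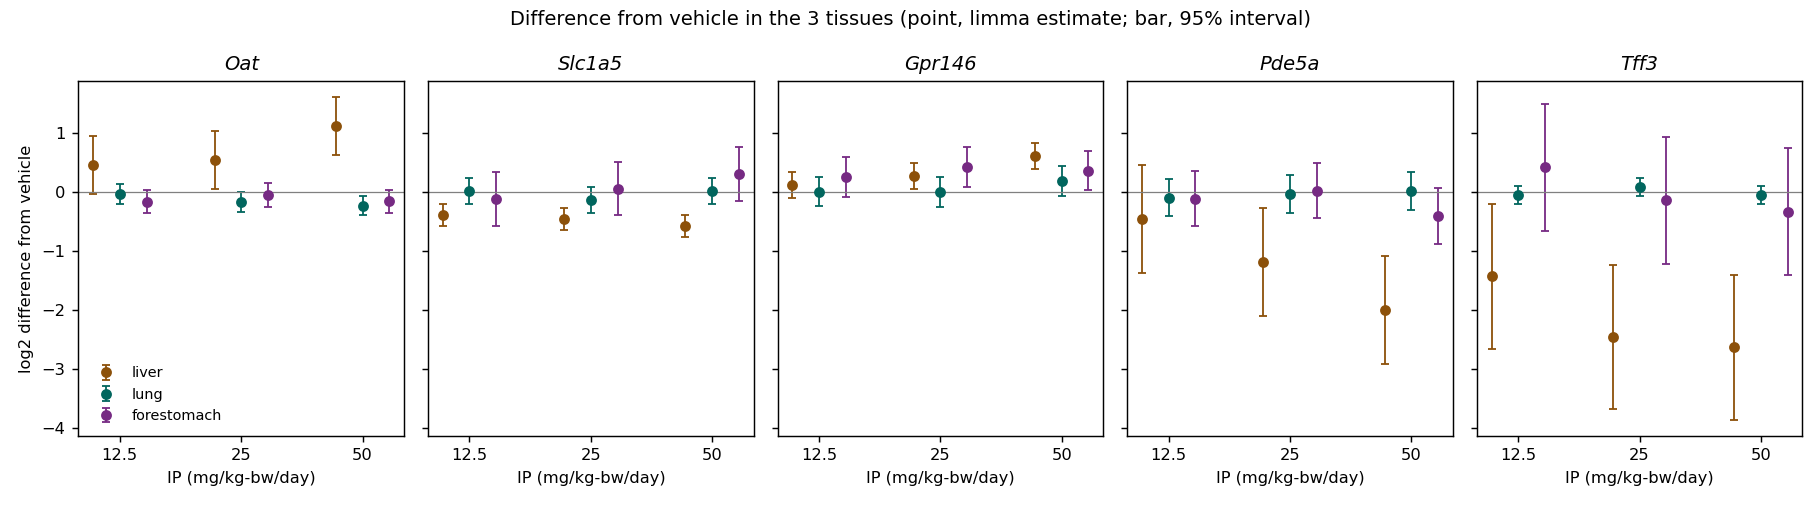
Difference from vehicle (y axis, log2 scale) of the 5 genes at each IP dose (x axis, mg/kg-bw/day) in liver, lung and forestomach. Points are limma estimates and bars 95% intervals. The genes were chosen on the liver values at the highest dose, and no liver value was tested against another tissue. In lung the interval of Tff3 at the highest dose ran from −0.19 to 0.11.

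In lung and forestomach the members had not been chosen, and the same dose comparisons were tested. None of the 5 genes was called (adjusted p at or under 0.05 together with at least a 1.5-fold difference) at any dose in either tissue (limma, Benjamini-Hochberg over 55681 probes). Of all probes, 0, 0.0126 and 0.079% were called in lung from the lowest to the highest dose and 0% in forestomach at each dose. At an unadjusted p under 0.05, 1 of the 5 genes was found at 25 and at 50 mg/kg-bw/day in lung (Oat) and in forestomach (Gpr146), beside 6.53 and 8.8% of all probes in lung and 3.6 and 3.89% in forestomach, and at 12.5 mg/kg-bw/day none was, beside 3.92 and 4.12%.

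Oat in lung ranged over 1.36 to 1.62 in the 5 vehicle mice and over 1.33 to 1.57 in mice 6 to 10. It was 1.45, 1.31, 1.37, 1.28 and 1.22 in mice 11 to 15 and 1.40, 1.33, 0.97, 1.21 and 1.39 in mice 16 to 20. Of the 5 mice at the highest dose, 3 were below the lowest vehicle mouse. The differences from vehicle were −0.03, −0.17 and −0.23 (SE 0.08), opposite in sign to those in liver, with an adjusted p of 0.31 at the highest dose (limma) and an exact permutation p of 0.024 at 25 and at 50 mg/kg-bw/day (two-sided, where 0.0079 is the smallest possible). The sign depended on the scaling, since median-centring gave 0.04 at 50 mg/kg-bw/day. In forestomach Oat differed by −0.16, −0.05 and −0.16 (SE 0.09), and median-centring gave 0.06, 0.29 and 0.24.

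Gpr146 in forestomach was −0.65, −0.32, −0.09 and −0.11 in vehicle mice 1, 2, 3 and 5. The lowest dose group had −0.31, 0.07, 0.23, 0.13 and −0.33 in mice 6 to 10. The middle dose group had 0.29, 0.17, 0.06, 0.31 and −0.20 in mice 11 to 15, and the highest 0.34, −0.33, 0.31, −0.10 and 0.13 in mice 16 to 20. Of the 15 dosed mice, 10 lay above the vehicle range, and mice 6, 10, 15, 17 and 19 lay within it. The differences were 0.25, 0.42 and 0.37 (SE 0.16), with an adjusted p of 1 at the 2 higher doses (limma) and exact permutation p values of 0.17, 0.032 and 0.10. In lung Gpr146 differed by 0.01, 0.0001 and 0.19 (SE 0.12).

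Slc1a5 in lung stayed between −0.25 and 0.43 over all 20 mice, and its differences were 0.01, −0.13 and 0.02 (SE 0.11). In forestomach at 50 mg/kg-bw/day it was 0.05 in mouse 16 and −0.17 in mouse 18, against −1.19, −1.16 and −1.01 in mice 17, 19 and 20 and −1.20 to −0.83 in vehicle. The dimmer probe gave the same 2 mice, at 0.09 and −0.12, against −1.08 to −0.95 in the other 3. The group difference was 0.31 (SE 0.22; adjusted p of 1, limma). The array of mouse 18 had 85.9% of probes above background and that of mouse 16 47.7%.

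Pde5a in lung differed by −0.09, −0.04 and 0.01 (SE 0.15), with a 95% interval of −0.31 to 0.34 at 50 mg/kg-bw/day. In forestomach it was −0.64, −0.10, 0.03, 0.45 and 0.17 in mice 16 to 20 and −0.46, 0.77, 0.67 and 0.57 in vehicle mice 1, 2, 3 and 5, a difference of −0.41 (SE 0.22; adjusted p of 1, limma). The vehicle mean rests on mouse 1 here, and without that mouse the difference was −0.69.

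Tff3 in lung was close to background, being well above it on 3, 2, 4 and 3 of 5 arrays from vehicle to 50 mg/kg-bw/day, and it differed by −0.05, 0.09 and −0.04 (SE 0.07). In forestomach it was 0.18, 1.20, 0.94 and 0.39 in vehicle mice 1, 2, 3 and 5 and 1.35, 0.45, 0.00, 0.22 and 3.48 in mice 6 to 10. Mouse 10 was the highest of all forestomach arrays, and without it the difference at 12.5 mg/kg-bw/day turned from 0.42 to −0.17. At 25 and 50 mg/kg-bw/day the differences were −0.14 and −0.33 (SE 0.51).

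The forestomach samples held different amounts of glandular stomach. The mean log2 ratio of 10 glandular stomach markers was 5.00 to 6.60 on 10 of the 19 forestomach arrays (3 of 4 vehicle arrays and 2, 2 and 3 of 5 from the lowest to the highest dose) and 0.56 to 1.88 on the other 9. Tff3 was −0.01 to 3.48 with a median of 0.90 on the former and 0.00 to 0.45 with a median of 0.21 on the latter. For Pde5a the medians were 0.47 and 0.13, for Oat 0.98 and 0.84, for Slc1a5 −0.99 and −1.04 and for Gpr146 −0.10 and 0.17. The part of glandular tissue in the forestomach results was not tested.

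**Figure D3:**
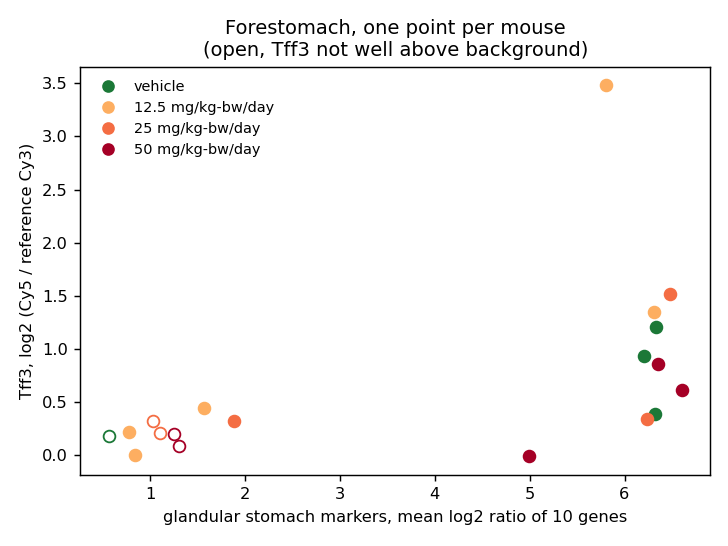
Tff3 (y axis, log2(Cy5/Cy3)) against the mean log2 ratio of 10 glandular stomach markers (x axis) in forestomach, 1 point per mouse, coloured by dose, with open points where Tff3 was not well above background. The 9 arrays with a marker level of at most 1.88 all had Tff3 at or below 0.45, and mouse 10 had 3.48.

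Whether the change at 50 mg/kg-bw/day differed between lung and forestomach was tested in a joint limma fit. The difference of the 2 changes was −0.08 for Oat (95% interval −0.32 to 0.17), −0.29 for Slc1a5 (−0.78 to 0.20), −0.18 for Gpr146 (−0.59 to 0.24), 0.42 for Pde5a (−0.14 to 0.98) and 0.29 for Tff3 (−0.76 to 1.33). None of the 5 was called (adjusted p of 1 each), beside 0.0018% of all probes, and none had an unadjusted p under 0.05, beside 3.53%.

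**Figure D4:**
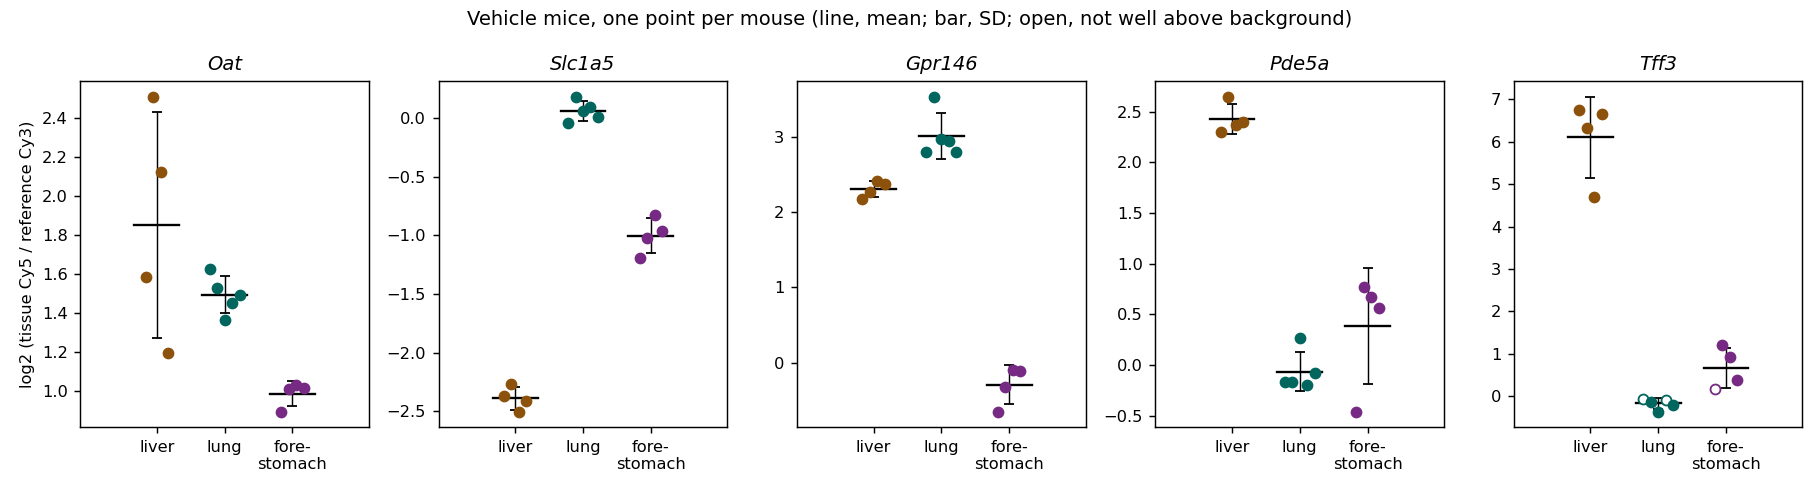
Log2(Cy5/Cy3) (y axis, log2 scale) of the 5 genes in liver, lung and forestomach (x axis) of vehicle mice, 1 point per mouse, with the mean (line) and SD (bar). Open points were not well above background. Tff3 and Pde5a were highest in liver, and Slc1a5 was lowest there.

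The levels in vehicle mice were set side by side across the 3 tissues. The vehicle livers were part of the contrast on which the genes were chosen, so the differences of liver from the other tissues are values with no test. Lung and forestomach were tested, and 2 of the 5 genes were called, beside 19.8% of all probes. The limma fit took its spread from the vehicle arrays of all 3 tissues. Those include the vehicle livers on which the genes were chosen. Of all probes, 35.7% did not overlap between vehicle liver and lung, and 32.2% between vehicle liver and forestomach. These shares are the background for the lack of overlap stated for liver below. Liver is on its own slides, so its differences from the other tissues cannot be told apart from slide and software version.

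Tff3 was 6.10 ± 0.96 (SD, n = 4) in liver, 0.68 ± 0.47 (n = 4) in forestomach and −0.17 ± 0.12 (n = 5) in lung. The liver mean was above that of lung by 6.27 (SE 0.33) and above that of forestomach by 5.43 (SE 0.35), without overlap. The probe was well above background in 3 of 5 vehicle lungs and 3 of 4 vehicle forestomachs, so the fold against these tissues is limited by background there. Forestomach and lung did not overlap (28.6% of all probes did not) but missed the threshold (difference of lung from forestomach −0.85, adjusted p = 0.062, limma; exact permutation p = 0.0079). Tff3 was called here without vehicle mouse 1 (−1.04, adjusted p = 0.041, limma) and without vehicle mouse 3 (−0.71, adjusted p = 0.018, limma). Mouse 1 was the vehicle forestomach with low glandular stomach markers. Tff3 was also called with median-centring, and with the scanner ratio (−2.31, adjusted p = 0.00036, limma).

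Pde5a was 2.43 ± 0.15 (n = 4) in liver, 0.39 ± 0.57 (n = 4) in forestomach and −0.07 ± 0.19 (n = 5) in lung. The liver mean was above lung by 2.50 (SE 0.20) and above forestomach by 2.04 (SE 0.21), without overlap. At 50 mg/kg-bw/day the mean liver level, 0.43 ± 0.55 (n = 5), stood beside the vehicle level of forestomach. Forestomach and lung overlapped and did not pass (difference of lung from forestomach −0.46, adjusted p = 0.099, limma). Without vehicle mouse 1 they did (−0.71, adjusted p = 0.00063, limma). The vehicle forestomachs left then all had high glandular stomach markers. In 9 other settings the difference ran from −0.62 to 0.16, its sign turning with median-centring, and none passed.

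Slc1a5 ran the other way, with 0.06 ± 0.09 (n = 5) in lung, −1.0 ± 0.15 (n = 4) in forestomach and −2.39 ± 0.10 (n = 4) in liver. Lung exceeded forestomach by 1.06 (SE 0.09; adjusted p = 1.42e-07, limma), and the difference of liver was −2.45 from lung and −1.39 from forestomach (SE 0.09 each), without overlap. The dimmer probe gave 0.86, −2.83 and −1.98 for the same differences, so that here both probes had the same direction.

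Gpr146 was 3.01 ± 0.30 (n = 5) in lung, 2.31 ± 0.11 (n = 4) in liver and −0.30 ± 0.26 (n = 4) in forestomach. Lung exceeded forestomach by 3.30 (SE 0.15; adjusted p = 1.04e-10, limma). The difference of liver was 2.60 from forestomach (SE 0.16) and −0.70 from lung (SE 0.15). The latter was −0.56 without vehicle mouse 2 (3.53 in lung), −0.39 with the scanner ratio and −1.75 with median-centring. The non-coding Gpr146 probe was near background in all tissues and showed none of these differences (0.13, 0.08 and −0.05).

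Oat was 1.85 ± 0.58 (n = 4) in liver, 1.49 ± 0.10 (n = 5) in lung and 0.99 ± 0.06 (n = 4) in forestomach. The liver mean was above that of forestomach by 0.87 (SE 0.20) without overlap and above that of lung by 0.36 with overlap. Lung and forestomach did not overlap and had a difference of 0.51, or 1.42-fold (adjusted p = 0.052, limma). The spread behind this p includes that of the vehicle livers. Over 9 other settings the lowest adjusted p was 0.00043 (limma), with lung and forestomach fitted alone. With median-centring the difference of liver from lung changed sign (−0.56), that from forestomach was 0.50 and that of lung from forestomach was 1.07 and called (adjusted p = 0.024, limma).

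Whether the 5 genes moved together between mice of the same dose was examined over the 19 mice with all 3 tissues. Deviations from the group mean were used. The liver deviations include those of the vehicle and highest-dose mice on which the genes were chosen. The permutation p values below are therefore not independent of that choice. Of 20 relations (10 pairs of genes in liver, and each gene between liver and lung and between liver and forestomach), none had an adjusted p under 0.05 in a permutation test within dose groups (100000 permutations, two-sided). The lowest was Gpr146 with Tff3 in liver, with Pearson r = −0.55 (permutation p = 0.012, adjusted p = 0.23) and Spearman rho = −0.59 (permutation p = 0.0097, adjusted p = 0.16), and r = −0.51 without mice 9 and 16. Next was Gpr146 in liver with Gpr146 in forestomach, with r = 0.56 (permutation p = 0.024, adjusted p = 0.24) and rho = 0.57 (permutation p = 0.016, adjusted p = 0.16), and r = 0.49 without the same mice. Pde5a and Tff3, the genes with the widest liver ranges, had r = 0.05 (permutation p = 0.83, adjusted p = 0.88) and rho = 0.08 (permutation p = 0.76, adjusted p = 0.98).

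The genes whose liver pattern was most like each of the 5 over all 19 arrays were taken from 10649 genes above background on every liver array. These r values share arrays and dose groups and are a description. For Pde5a they were Slc49a4 (r = 0.921), Icmt (0.901) and Pipox (0.819). For Tff3 they were Slc13a2 (0.880), Zfyve9 (0.791) and Ovol2 (0.777). Slc13a2 differed by −2.52 at 50 mg/kg-bw/day, close to Tff3 itself. For Oat they were Surf1 (0.826), Irf8 (0.824) and Slc37a1 (0.778), for Slc1a5 Irf7 (0.845), Basp1 (0.785) and 9430060I03Rik (0.783), and for Gpr146 Cdc20 (0.830), Aaas (0.823) and Prkd2 (0.820). Among the most opposite genes were Krtap19-4 (−0.808) and Gfra4 (−0.803) for Oat, Rasa3 (−0.786), Aldh6a1 (−0.777) and Sp1 (−0.761) for Slc1a5, and Rai14 (−0.803), Entpd2 (−0.801) and Tmem181a (−0.788) for Pde5a. For Gpr146 they were 9430060I03Rik (−0.774), Pck1 (−0.773) and Pde5a (−0.771), and for Tff3 Coro7 (−0.814), Abcc3 (−0.811) and Ptp4a3 (−0.809). Within dose groups r was smaller in size for all of these genes. It stayed largest for Slc49a4 (0.857) and Icmt (0.837) with Pde5a, and was smallest for Aldh6a1 (−0.158) and Sp1 (−0.384) with Slc1a5 and for Pde5a with Gpr146 (−0.376).

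The pathways around the 5 genes and the markers of liver cell types were described in liver at 50 mg/kg-bw/day beside the median of all probes (−0.01). None of these genes was called (limma, 0% of all probes called and 6.87% at an unadjusted p under 0.05). Of 21 genes of ornithine, arginine and proline metabolism, 6 were higher and 15 lower than vehicle, with a median of −0.32, from Cps1, which makes carbamoyl phosphate for the urea cycle (−0.65), to glutamine synthetase Glul (0.25). Oat itself was at 1.12. Of 18 other amino acid transporters, 8 were higher and 10 lower (median −0.10), from Slc7a5, a large neutral amino acid transporter (−0.62), to the glutamate transporter Slc1a2 (0.31). Of 21 cyclic GMP genes, 15 were higher and 6 lower (median 0.08), from the phosphodiesterase Pde9a (−0.51) to the natriuretic peptide receptor Npr2 (0.46). Of 13 trefoil and mucus genes, 6 were higher and 7 lower (median −0.02), from Muc13 (−0.37) to Agr2 (0.20). Of 23 cholesterol synthesis genes and SREBP2 targets, 2 were higher and 21 lower (median −0.33), the lowest being the SREBP regulator Insig1 (−0.91).

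**Figure D5:**
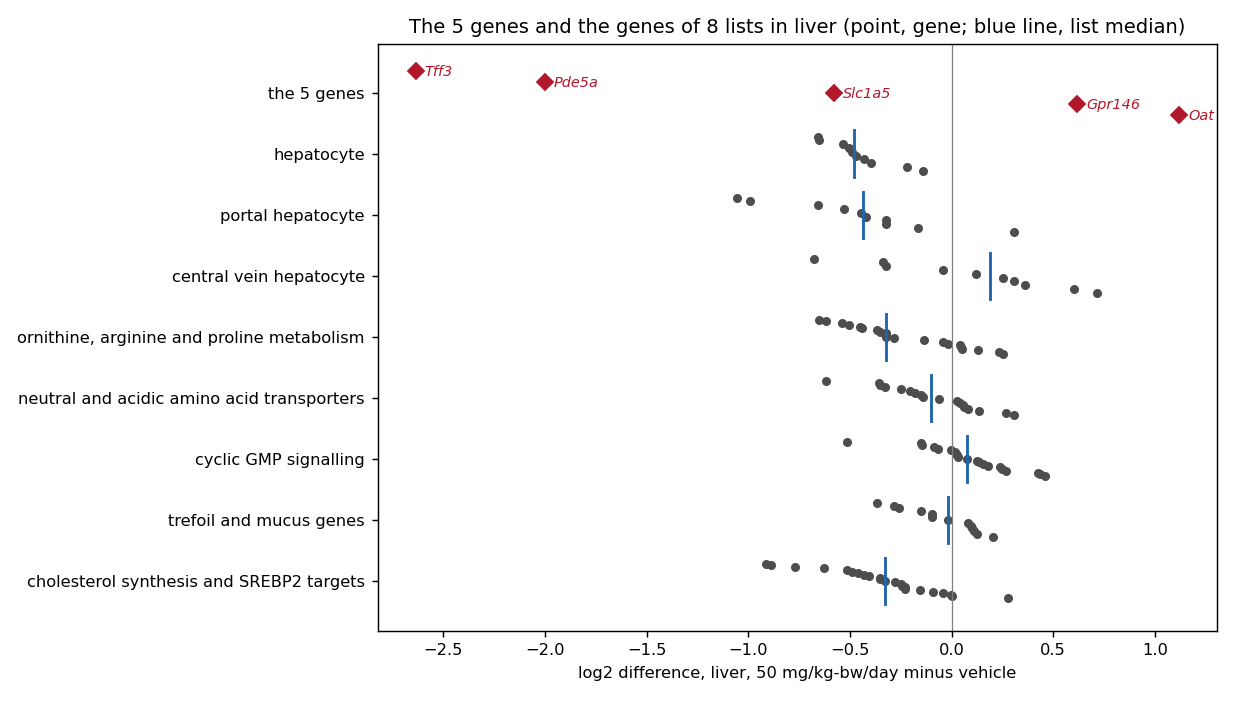
Log2 difference between 50 mg/kg-bw/day and vehicle in liver (x axis) of the 5 genes (red) and of the genes of 8 lists (y axis), 1 point per gene, with the list median (blue line). The 5 genes were chosen on this contrast and the listed genes were not, so their distance from the lists shows the choice. Most points of the cholesterol list lay below 0 (21 of 23).

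Several list medians turned with the scaling. With median-centring, 18 of 21 ornithine, arginine and proline genes and 19 of 23 cholesterol genes were higher than vehicle (medians 0.28 and 0.29), while normexp background correction, which adjusts for local background, and the scanner software's own ratio kept both medians below 0 (−0.31 and −0.32, −0.34 and −0.36). The transporter median also turned with median-centring (0.16), and the trefoil and mucus median with the scanner ratio (0.21), while the cyclic GMP median was above 0 under each scaling (0.06 to 0.47). In the step from 12.5 to 25 mg/kg-bw/day, 22 of 23 cholesterol genes were lower (median −0.26), and all 23 were with median-centring, but none was called (limma), and without the liver arrays with many probes above background 17 were lower (median −0.14).

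None of the hepatocyte markers was called. All 10 pan-hepatocyte markers were lower at 50 mg/kg-bw/day than in vehicle (median −0.48), from Apob (−0.66) to fibrinogen Fgb (−0.14), and so were 9 of 10 markers of hepatocytes around the portal vein (median −0.43), with Pck1, the gluconeogenic enzyme, at −1.05. Of 10 markers of central vein hepatocytes, where Oat is known to be made, 6 were higher and 4 lower (median 0.19), from Lect2 (−0.68) to Cyp2e1 (0.71), but the scanner ratio gave a median of −0.40. The hepatocyte score relative to the vehicle mean ranged from −0.66 to 0.31 in vehicle and from −0.83 to 0.00 at 50 mg/kg-bw/day, and all 10 markers were above background on every liver array. Within slides, the score at 50 mg/kg-bw/day was −0.07 against 0.21 and 0.31 in vehicle on the first slide, −0.83 and −0.79 against −0.66 on the second, and −0.56 and 0.00 against 0.15 on the third. With median-centring 8 of the 10 pan-hepatocyte markers were higher than vehicle (median 0.07), and 6 of the 10 portal ones (median 0.16). Medians of the other liver cell lists were 0.002 for Kupffer cells, −0.003 for bile duct, 0.03 for stellate cells, −0.23 for sinusoid endothelium, −0.10 for smooth muscle and −0.15 for red blood cells, and each of these changed sign under at least 1 other scaling. The part of cell makeup in the values of the 5 genes was not tested.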

How the data were processed

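Arrays of 58 samples were used, 20 of lung, 19 of liver and 19 of forestomach, grouped by the labels. The median spot intensity values were deposited by the authors as Agilent Feature Extraction output. The log10 ratios in the same files were made by that software, per the file headers, with background subtraction and dye normalization. The log2 ratios deposited by the authors (LOWESS-normalized medians) served as an alternative for lung and forestomach, and their liver columns were not used. The number of arrays limits the precision.

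Log2(Cy5/Cy3) was taken from the medians without background subtraction, normalized by loess within arrays, and replicate spots of a probe were averaged after outlier spots were dropped. Each tissue was fitted in limma 3.58.1 (R 4.3.3) with its 4 groups, with Benjamini-Hochberg adjustment over all 55681 probes. For the levels without exposure, the vehicle arrays of the 3 tissues were fitted together. The methods used a permuted Fs statistic (MAANOVA), which was not run. Members and lists were chosen with earlier results of these data known. The genes named are the 5 members, the 3 most and 3 least similar genes to each, and the extremes of each list, of which 2 genes are not reported here. The alternatives were normexp (offset 50), median-centring, Aquantile, the scanner ratio, deposited values, no removal of outlier spots, removal of dim probes, slide or mouse as a block, 2 groups alone, trend and robust, other probes and each mouse left out. Leaving out arrays with many probes above background was added after seeing the data. The fit was tested on simulated data. Mouse numbers in the labels were taken to name the animal across tissues. The median residual r of the same mouse was 0.154 for lung and forestomach, 0.044 for lung and liver and 0.016 for liver and forestomach. For other mice of the same dose it was −0.037, −0.023 and −0.011. Except for mouse 3, the lung and forestomach arrays of a mouse shared a slide, so mouse and slide cannot be told apart in the first value.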

Additional observations from a re-analysis of the deposited data

Results flagged for a closer look

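In groups of 4 or 5 mice, a mouse was noted when its gap to the nearest other mouse exceeded Dixon's limit, which chance alone gives in about 1 of 20 groups. In forestomach these were Oat in vehicle mouse 1 (0.89) and in mouse 14 at 25 mg/kg-bw/day (0.84), Pde5a in vehicle mouse 1 (−0.46), and Tff3 in mouse 15 at 25 mg/kg-bw/day (1.51). Vehicle mouse 1 was also the vehicle forestomach with low glandular stomach markers (0.56), and mouse 15 had high ones (6.48). In lung they were Gpr146 in vehicle mouse 2 (3.53) and Pde5a in vehicle mouse 3 (0.27), the latter on an array with 85.4% of probes above background. In liver it was Gpr146 in mouse 16 at 50 mg/kg-bw/day (3.23), on the array with 78.9% of probes above background. The rule was applied to all 7 probes in every group of the 3 tissues, so several such mice would arise by chance alone. Which of the mice named here did so was not tested.

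At 50 mg/kg-bw/day every mouse had Oat above the vehicle mean in liver and below it in lung and forestomach. The liver change exceeded that in lung by 1.35 and that in forestomach by 1.28 on the log2 scale. The difference was not tested, since Oat was chosen for its liver value, and the sign in lung and forestomach turned with median-centring.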

How the results depend on the processing

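The 15 liver differences from vehicle (5 genes, 3 doses) kept their sign in all 150 values from 10 other settings and all 285 values with 1 mouse left out. The genes were chosen on these liver values, so nothing is read from that count. It includes Slc1a5 at 50 mg/kg-bw/day with median-centring, where the difference was −0.002. The second probe changed the sign of the liver differences for Slc1a5 at the lowest (0.02) and the highest dose (0.24) and for Gpr146 at each dose (−0.23, −0.15 and −0.15). It changed that of Slc1a5 in lung at the lowest and highest dose (−0.10 each), that of Gpr146 in forestomach at the same doses (−0.14 and −0.03) and in the difference of lung and forestomach changes (0.06), and that of Gpr146 between vehicle liver and lung (0.13) and between vehicle lung and forestomach (−0.047), and the second Gpr146 probe was near background. The cause was not tested. The number of the 5 genes called stayed at 0 in every alternative for the step from 12.5 to 25 mg/kg-bw/day in liver, for each dose in lung and forestomach and for the difference between these tissues. Between vehicle lung and forestomach it was 2, and 4 with median-centring and without vehicle mouse 1, with a range of 2 to 4 when each mouse was left out. Values that missed the threshold were compared by size only, and several near 0 changed sign. With the mouse as replicate block in the paired comparison of vehicle lung and forestomach, 2 genes were called as before, and with the mouse as a random replicate block the difference of lung and forestomach changes had 0. Tff3 in lung and the second Gpr146 probe were limited by signal close to background.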
